A study of Mus musculus with 3 samples.

Results

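LINE-1 RNA was followed in 3 cultures of male mouse embryonic stem cells: wildtype, DAXX-/- and ATRX-/-. LINE-1 sequences were taken as every counted repeat consensus whose name carries the class label L1, which gave 176 of the 1564 repeat sequences and of 50407 named sequences in all. They were grouped by the subfamily in their name into L1MdA (7 sequences), L1MdTf (3), L1MdGf (3), L1MdF (6), L1MdV (3) and all others (154). The cells were isogenic, of C57BL/6x129sV background, and the knockouts came from CRISPR targeting. Each genotype was 1 clone and 1 polyA RNA library. The cells grew in serum with leukaemia inhibitory factor and had been taken off irradiated feeder cells onto gelatin. With 1 clone each, clone and genotype cannot be told apart.

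LINE-1 elements are retrotransposons without long terminal repeats that copy themselves through an RNA. A full-length mouse copy has a promoter made of repeated monomers, an open reading frame for an RNA-binding protein and another for an endonuclease and reverse transcriptase, and it ends in a poly(A) tail. Subfamilies A, Tf and Gf hold copies that can still move in the mouse genome, while F and V are older. In stem cells these elements are restrained by DNA methylation, by methylation of histone H3 at lysine 9 and by the HUSH complex. ATRX, a chromatin remodeller, and DAXX, a chaperone of the histone variant H3.3, act together at heterochromatin and at endogenous retroviruses. Each sequence counted here is a consensus that stands for many genomic copies, so it has no single genomic position, and a change cannot be given to 1 copy.

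Transcripts took 13981915, 11224100 and 13988376 reads (wildtype, DAXX-/-, ATRX-/-), and LINE-1 levels are given as reads per 1000000 transcript reads (RPM). Every series of 3 values below keeps that order. LINE-1 sequences took 26352, 25082 and 17653 reads, which is 0.187%, 0.221% and 0.125% of aligned reads. With 1 library for each genotype there was no replicate and no test of genotype, and differences below are between libraries. Intervals in parentheses are exact 95% intervals for counting error only. PCR copies of 1 molecule, which are not independent, are not covered by them. A sequence or gene was called higher or lower, and is said to rise or fall, if no value inside its interval was within 2-fold. All 10 stem cell markers were detected in every library, with summed levels of 6415, 6682 and 6722 RPM. The 12 fibroblast markers summed to 1389, 1609 and 1644 RPM. Most of this was Fn1, which stem cells express, at 1353, 1599 and 1625 RPM. Lum was at 0 everywhere, and the 11 without Fn1 summed to 35.98, 10.2 and 19.3 RPM. Of the 12, 7 were tested, and 5 fell in DAXX-/- cells and 1 in ATRX-/- cells. Of all genes tested, 1.9% and 1.29% fell. The 12 endoderm markers summed to 649.8, 211 and 361 RPM, and of 11 tested 11 and 3 fell. Their part in the LINE-1 values was not tested. In bulk RNA, fewer cells that express an element and less RNA from each cell cannot be told apart.

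Most LINE-1 sequences had no read in any library. Of the 176, 113 had 0 reads everywhere, 28 had some reads but under 20 in each library, and 35 reached 20 reads in at least 1 library. The 35 held all but 0.493% of LINE-1 reads in wildtype, 0.335% in DAXX-/- cells and 0.312% in ATRX-/- cells. L1MdV_II, with at most 20 reads, lay just inside this limit and Lx_3end, with at most 18, just outside it. The 123 sequences named for taxa other than Mus had 104, 66 and 40 reads in all. None of the 26 named for Homo sapiens or the 35 named for Cavia porcellus (guinea pig) had a read. Nearly all LINE-1 reads therefore lay on sequences named for Mus, and 29 of the 35 were consensus sequences of at least 5000 bases, near the length of a whole element.

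As a sum, LINE-1 stood above wildtype in the DAXX-/- library and below it in the ATRX-/- library, inside 2-fold in both. The level was 1885, 2235 and 1262 RPM. DAXX-/- cells held 1.19 times the wildtype level (1.17 to 1.21), a log2 fold of 0.25 (0.22 to 0.27). ATRX-/- cells held 0.670 times that level (0.657 to 0.682), a log2 fold of -0.58 (-0.61 to -0.55). Compared directly, ATRX-/- cells held 0.565 times the level of DAXX-/- cells (0.554 to 0.576), a log2 fold of -0.82 (-0.85 to -0.80). The first 2 comparisons share the wildtype library.

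Of 35 LINE-1 sequences with at least 20 reads in a library compared, 0 were called higher and 0 lower in DAXX-/- cells against wildtype, where 6.32% of all repeat sequences tested were called, all of them higher. The same counts were 0 and 0 of 35 in ATRX-/- cells, beside 4.4% of all repeat sequences (3.3% higher and 1.1% lower), and 0 and 0 of 30 between the knockouts, beside 2.41%, all lower. None of the 6 subfamily sums was called in any of the 3 comparisons. Smaller shifts were common. In DAXX-/- cells 11 of the 35 had an interval wholly above 0 and 4 (L1MdA_I, L1_MM, L1MdFanc_I and L1MdMus_I) wholly below. The shares were 33.7% and 11.6% over all repeat sequences tested, and 35% and 11.7% over the 60 that are not LINE-1. In ATRX-/- cells 29 of 35 lay wholly below 0 and 1, L1MdGf_I, above, against 54.9% and 12.1% of all repeat sequences and 37.5% and 17.9% of the 56 others. Between the knockouts 28 of 30 lay below 0 and 0 above, against 74.7% of all and 64.2% of the 53 others. The median log2 fold over the LINE-1 sequences was -0.01 in DAXX-/- cells and -0.71 in ATRX-/- cells, over the other repeat sequences 0.12 and -0.58, and over all genes tested -0.07 and -0.05.

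**Figure D1:**
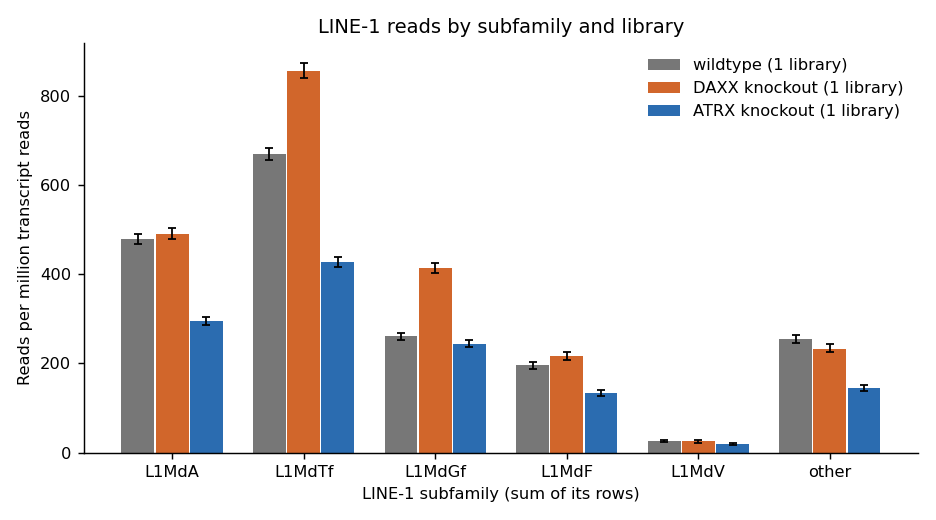
RPM (reads per 1000000 transcript reads, vertical axis) summed over each LINE-1 subfamily in the wildtype (grey), DAXX knockout (orange) and ATRX knockout (blue) libraries, 1 library each, with 95% counting intervals. L1MdTf is the tallest group in every library, at 669, 856 and 427 RPM, and L1MdGf stands at 413 in the DAXX-/- library against 260.3 in wildtype.

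L1MdTf held more LINE-1 reads than any other subfamily in each library. Its 3 sequences summed to 9354, 9608 and 5970 reads, or 669, 856 and 427 RPM. The log2 fold of the sum was 0.36 (0.31 to 0.40) in DAXX-/- cells and -0.65 (-0.70 to -0.60) in ATRX-/- cells. Between the knockouts it was -1.004 (-1.05 to -0.96), so ATRX-/- cells held 0.499 times the level of DAXX-/- cells, with an interval (0.483 to 0.515) that straddles the 2-fold limit. L1MdTf alone made up 53.4% of the gain in LINE-1 level in the DAXX-/- library over wildtype and 38.9% of the deficit in the ATRX-/- library.

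The 3 L1MdTf sequences were shifted by unequal amounts. L1MdTf_I had 3476, 3384 and 2009 reads, with log2 folds of 0.28 (0.21 to 0.35) and -0.79 (-0.87 to -0.71). L1MdTf_II had 3270, 3347 and 2003 reads, with 0.35 (0.28 to 0.42) and -0.71 (-0.79 to -0.63). L1MdTf_III had 2608, 2877 and 1958 reads, with 0.46 (0.38 to 0.54) and -0.41 (-0.50 to -0.33). All 3 were highest in RPM in DAXX-/- cells and lowest in ATRX-/- cells, and L1MdTf_III had the highest fold of the 3 against wildtype in each. Between the knockouts L1MdTf_I and L1MdTf_II had log2 folds of -1.07 (-1.15 to -0.99) and -1.06 (-1.14 to -0.98). Both would be called lower in ATRX-/- cells under TMM scaling (edgeR's trimmed mean), at -1.09 (-1.18 to -1.01) and -1.08 (-1.16 to -1.003).

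L1MdGf had the largest log2 fold of the subfamily sums in DAXX-/- cells and the one nearest to 0 in ATRX-/- cells. Its reads numbered 3640, 4637 and 3418, or 260.3, 413 and 244 RPM. The log2 fold was 0.67 (0.60 to 0.73) in DAXX-/- cells, 1.59 times wildtype (1.52 to 1.66), and -0.09 (-0.16 to -0.02) in ATRX-/- cells. The size of both values depended on L1MdGf_I. It had 2211, 3271 and 2454 reads, with log2 folds of 0.88 (0.80 to 0.96) and 0.15 (0.07 to 0.23). Without L1MdGf_I the sum stood at 0.25 (0.14 to 0.36) in DAXX-/- cells, still above 0. In ATRX-/- cells it stood at -0.57 (-0.69 to -0.45). Under TMM scaling the ATRX-/- value of the whole sum was -0.02. L1MdGf_I by itself made up 38.1% of the gain in LINE-1 level in the DAXX-/- library.

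The 2 other sequences of the Gf name did not share these values. L1MdGf_II had 1122, 1084 and 786 reads, with log2 folds of 0.27 (0.15 to 0.39) and -0.51 (-0.65 to -0.38). L1Md_Gf_5end, a consensus of 1142 bases named for the 5′ end, which carries the promoter monomers in a whole element, had 307, 282 and 178 reads. Its log2 folds were 0.19 (-0.04 to 0.43) and -0.79 (-1.06 to -0.52). In both knockouts its value was therefore nearer to that of L1MdGf_II than to that of L1MdGf_I. L1Md_Gf_5end took 0.139 reads per read of L1MdGf_I in wildtype (0.123 to 0.157), 0.0862 in DAXX-/- cells (0.0761 to 0.0974) and 0.0725 in ATRX-/- cells (0.0619 to 0.0845), a ratio within each library that does not depend on scaling. Where a sequence of the 5′ end and a whole consensus share bases, reads can be placed on either, and this exchange was not tested.

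**Figure D2:**
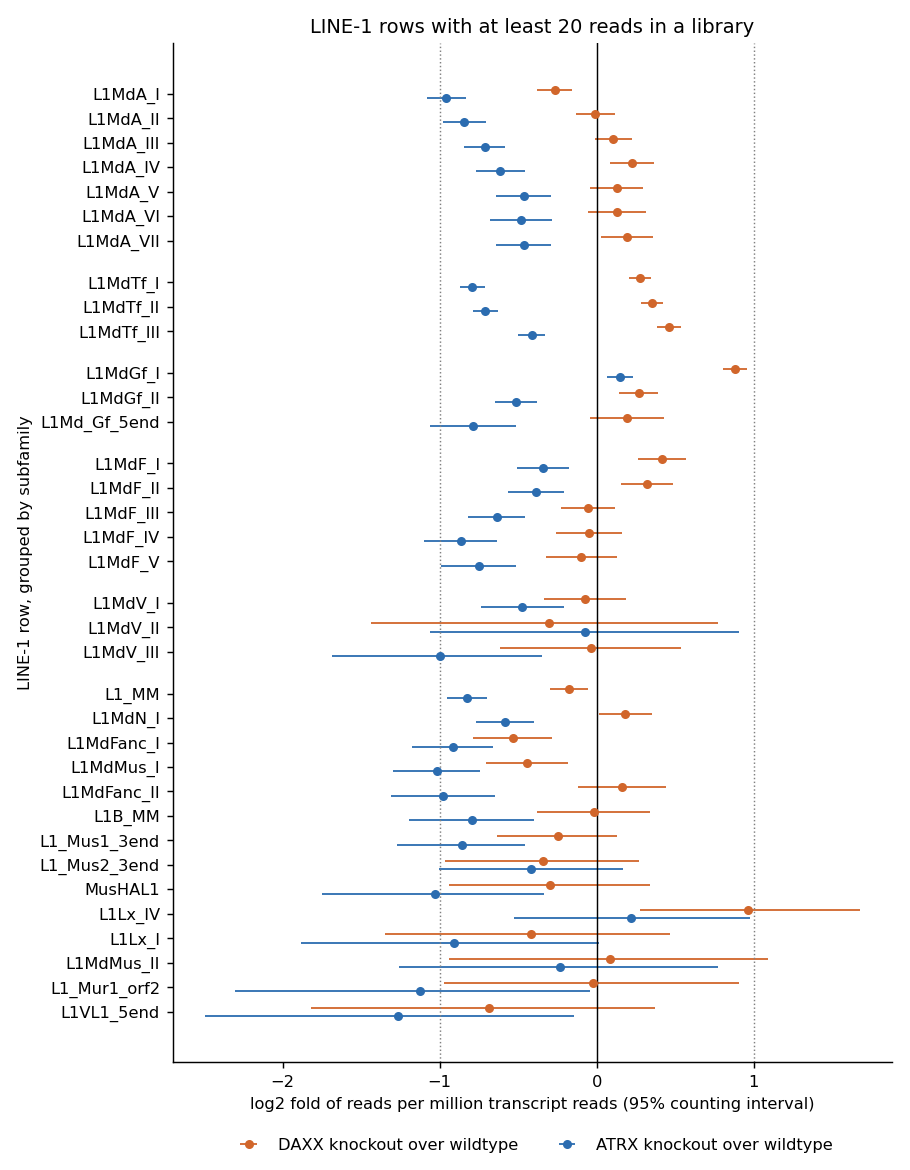
Log2 fold against wildtype (horizontal axis) of each of the 35 LINE-1 sequences with at least 20 reads in a library, in DAXX-/- cells (orange) and ATRX-/- cells (blue), with 95% counting intervals; dotted lines mark 2-fold. No interval lies wholly beyond a dotted line, and L1MdGf_I stands apart from its neighbours at 0.88 and 0.15.

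L1MdA, the second most abundant subfamily, was as a sum close to wildtype in DAXX-/- cells and lower in the ATRX-/- library. It had 6697, 5505 and 4110 reads, or 479, 490.5 and 294 RPM. The log2 fold was 0.03 (-0.02 to 0.09) in DAXX-/- cells and -0.71 (-0.76 to -0.65) in ATRX-/- cells. The value of 0.03 became 0.13 under TMM scaling. Without L1MdA_I it was 0.12 (0.06 to 0.18), an interval clear of 0. Between the knockouts it was -0.74 (-0.80 to -0.68).

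Within L1MdA the sequence numbered I had the lowest fold in both knockouts. L1MdA_I had 1608, 1073 and 829 reads, with log2 folds of -0.27 (-0.38 to -0.15) and -0.96 (-1.08 to -0.83). L1MdA_II, with 1218, 973 and 680 reads, stood at -0.01 and -0.84, and L1MdA_III, with 1232, 1065 and 752, at 0.11 and -0.71. L1MdA_IV, with 848, 796 and 555 reads, stood at 0.23 and -0.61. L1MdA_V, L1MdA_VI and L1MdA_VII, with 515 to 643 wildtype reads, lay between 0.13 and 0.19 in DAXX-/- cells and between -0.48 and -0.46 in ATRX-/- cells. The share of L1MdA reads on L1MdA_I was 24.0% in wildtype (22.99% to 25.05%), 19.5% in DAXX-/- cells (18.5% to 20.6%) and 20.2% in ATRX-/- cells (18.95% to 21.4%). The wildtype share thus lay above both others, whose intervals overlap. Between the knockouts, where wildtype plays no part, L1MdA_I stood at -0.69 inside the range of the other members (-0.84 to -0.59).

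L1MdF showed the opposite order. Its 6 sequences had 2735, 2436 and 1868 reads, or 195.6, 217 and 134 RPM, with log2 folds of 0.15 (0.07 to 0.23) and -0.55 (-0.64 to -0.47). The first was 0.05 (-0.04 to 0.15) without L1MdF_I and 0.24 under TMM scaling. L1MdF_I, with 669, 716 and 528 reads, stood highest at 0.41 (0.26 to 0.57) and -0.34 (-0.51 to -0.18). L1MdF_II, with 596, 598 and 456 reads, stood at 0.32 (0.16 to 0.49) and -0.39 (-0.57 to -0.21). L1MdF_III, L1MdF_IV and L1MdF_V lay between -0.10 and -0.05 in DAXX-/- cells, directions that turn for L1MdF_III and L1MdF_IV under TMM scaling, and between -0.86 and -0.64 in ATRX-/- cells. The sequences with low numerals were therefore the higher ones in L1MdF and the lower ones in L1MdA. Between the knockouts the 5 tested L1MdF sequences spanned -0.82 to -0.58, with L1MdF_I at -0.76. The sixth, L1Md_F_5end, had 14, 3 and 6 reads.

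L1MdV was the scarcest named subfamily. It had 367, 279 and 256 reads, or 26.2, 24.9 and 18.3 RPM. Its log2 fold was -0.08 (-0.31 to 0.15) in DAXX-/- cells, which became 0.01 under TMM scaling, and -0.52 (-0.76 to -0.29) in ATRX-/- cells. L1MdV_I carried most of it, with 287, 219 and 207 reads. L1MdV_III had 60, 47 and 30 reads and L1MdV_II 20, 13 and 19, too few to place either on 1 side of wildtype in DAXX-/- cells.

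The remaining 154 sequences held 3559, 2617 and 2031 reads, on 41 of them. Their sum had a log2 fold of -0.13 (-0.20 to -0.05) in DAXX-/- cells, which became -0.03 under TMM scaling, and of -0.81 (-0.89 to -0.73) in ATRX-/- cells, the lowest of the 6 groups. L1_MM, a mouse consensus of 6398 bases without a subfamily letter, led them with 1378, 979 and 778 reads and stood at -0.18 (-0.30 to -0.06) and -0.83 (-0.95 to -0.70). L1MdN_I, with 608, 554 and 406 reads, stood at 0.18 (0.01 to 0.35) and -0.58 (-0.77 to -0.40).

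Other members of this group spread widely. L1MdFanc_I, a consensus of the ancestral F type, had 366, 203 and 194 reads, with log2 folds of -0.53 (-0.79 to -0.28) and -0.92 (-1.18 to -0.66). L1MdMus_I had 328, 194 and 162 reads, with -0.44 (-0.70 to -0.18) and -1.02 (-1.30 to -0.74). L1MdFanc_II, with 226, 203 and 115 reads, stood at 0.16 (-0.12 to 0.44) and -0.98 (-1.31 to -0.65), and between the knockouts at -1.14 (-1.48 to -0.80). L1Lx_IV stood higher, with 30, 47 and 35 reads and a log2 fold of 0.96 (0.27 to 1.68) in DAXX-/- cells, and of 0.22 (-0.52 to 0.98) in ATRX-/- cells, while L1Lx_I had 30, 18 and 16 reads. At these counts the intervals of the L1Lx sequences span over 1 log2 unit, and few differences could be seen.

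Per length, the order of the leading sequences was not the same in the 3 libraries. In RPM per kilobase of consensus, wildtype had L1MdTf_I at 33.6 (32.5 to 34.7) and L1MdTf_II at 32.9 (31.8 to 34.02), which overlap, then L1MdTf_III at 27.97 (26.9 to 29.1) and L1MdGf_I at 22.3 (21.4 to 23.3). In DAXX-/- cells L1MdTf_II at 41.9 (40.5 to 43.4), L1MdGf_I at 41.1 (39.7 to 42.6) and L1MdTf_I at 40.8 (39.4 to 42.2) overlapped. In ATRX-/- cells L1MdGf_I led at 24.8 (23.8 to 25.8), above L1MdTf_III at 20.99 (20.1 to 21.9), L1MdTf_II at 20.1 (19.3 to 21.03) and L1MdTf_I at 19.4 (18.6 to 20.3). L1MdGf_I was thus the fourth in wildtype and the first in ATRX-/- cells.

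**Figure D3:**
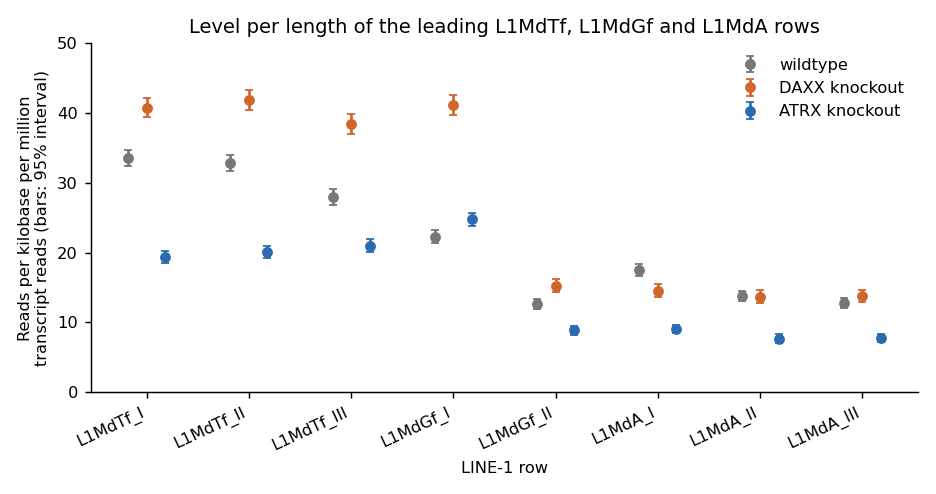
Level per length (RPM per kilobase of consensus, vertical axis) of 8 leading LINE-1 sequences in the 3 libraries, with 95% counting intervals. L1MdGf_I lies below the 3 L1MdTf sequences in wildtype (22.3 against 27.97 to 33.6) and above them in ATRX-/- cells (24.8 against 19.4 to 20.99).

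Pairs of sequences, picked by hand, were also compared within each library. The ratio of L1MdGf_I to L1MdTf_I reads, a pair chosen after its values were seen, restates the counts above without any scaling. It was 0.636 in wildtype (0.603 to 0.671), 0.967 in DAXX-/- cells (0.921 to 1.01) and 1.22 in ATRX-/- cells (1.15 to 1.30), with no overlap of intervals. L1MdGf_I against L1MdGf_II gave 1.97 (1.83 to 2.12), 3.02 (2.82 to 3.24) and 3.12 (2.88 to 3.39), where the knockouts overlap and wildtype lies apart. L1MdTf_I against L1MdTf_III gave 1.33 (1.27 to 1.40), 1.18 (1.12 to 1.24) and 1.03 (0.964 to 1.09), again without overlap. How reads with equally good positions were placed among LINE-1 sequences is not given in the sources used here. Single sequences are therefore less certain than subfamily sums. Exchange of reads between subfamilies was not tested either, and it would touch the sums, the shares and the ratio of L1MdGf_I to L1MdTf_I.

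The make-up of LINE-1 reads moved with these sequences. L1MdGf held 13.8% of LINE-1 reads in wildtype (13.4% to 14.2%), 18.5% in DAXX-/- cells (18.01% to 18.97%) and 19.4% in ATRX-/- cells (18.8% to 19.95%). L1MdA held 25.4% (24.9% to 25.9%), 21.9% (21.4% to 22.5%) and 23.3% (22.7% to 23.9%). L1MdTf held 35.5% (34.9% to 36.1%), 38.3% (37.7% to 38.9%) and 33.8% (33.1% to 34.5%). Both knockout libraries thus had a larger L1MdGf share and a smaller L1MdA share than wildtype, and they lay on opposite sides of it for L1MdTf. The L1MdGf difference rested largely on L1MdGf_I, the leading sequence of that subfamily. With the leading sequence left out of every subfamily, L1MdGf held 8.55%, 8.85% and 8.89%, and L1MdA 30.4%, 28.7% and 30.2%. L1MdA was then near wildtype in ATRX-/- cells and still below it in DAXX-/- cells. L1MdTf held 35.1%, 40.3% and 36.5%, where both knockouts lie above wildtype, and its difference in DAXX-/- cells did not shrink. L1MdF and L1MdV differed less, at 10.4%, 9.71% and 10.6% and at 1.39%, 1.11% and 1.45%.

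**Figure D4:**
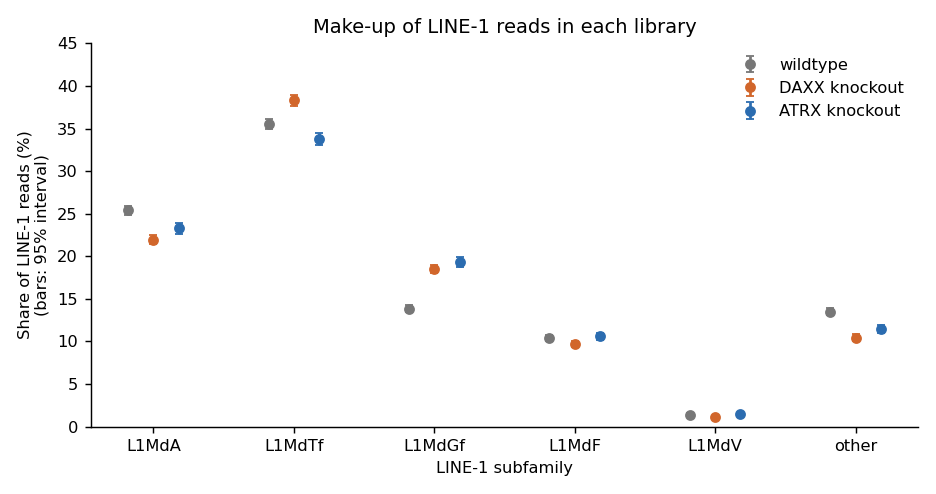
Share of all LINE-1 reads (vertical axis, percent) on each subfamily in the 3 libraries, with exact 95% intervals. L1MdGf stands at 13.8% in wildtype and at 18.5% and 19.4% in the knockouts, while L1MdTf is highest in DAXX-/- cells at 38.3%.

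Beside the other repeat classes, LINE-1 had a log2 fold far below that of intracisternal A particle (IAP) sequences in both knockouts. In level LINE-1 stayed above IAP, at 2235 against 846 RPM in DAXX-/- cells and 1262 against 585 in ATRX-/- cells. IAPs, retroviruses that ATRX and DAXX are known to restrain, rose in both knockouts, with log2 folds of 1.74 (1.68 to 1.79) and 1.20 (1.15 to 1.26), from 3549 reads in wildtype to 9500 and 8181. Other long terminal repeat elements stood at 0.50 (0.48 to 0.51) and 0.29 (0.27 to 0.30). Most of their reads lay on 8 MMETN, ERVB7 and ETNERV sequences. The 876 others, with 7296, 7359 and 5929 reads, stood at 0.33 (0.28 to 0.38) and -0.30 (-0.35 to -0.25), so their direction in ATRX-/- cells was that of LINE-1. RLTR4I_MM, 1 of the 876, took 505, 1788 and 586 of these reads, with a log2 fold of 2.14 (2.00 to 2.29) in DAXX-/- cells. The sum without it was not computed, so the value of 0.33 may not hold for the rest. Short interspersed elements (SINEs), which use the LINE-1 machinery to copy themselves, stood at -0.33 (-0.48 to -0.18) and -0.80 (-0.96 to -0.65), from 919 reads to 587 and 527. Satellites stood at -0.19 (-0.52 to 0.13) and -0.72 (-1.06 to -0.39), and the remaining repeats at -0.04 (-0.65 to 0.56) and -0.53 (-1.17 to 0.09). In DAXX-/- cells the LINE-1 value of 0.25 had the sign of the summed values of the retroviral groups. In ATRX-/- cells the LINE-1 value of -0.58 had the sign of SINEs, satellites, the remaining repeats and these 876 sequences, opposite to IAP. None of these differences has a replicate check. LINE-1 made up 26.6% of repeat reads in wildtype (26.3% to 26.9%), 22.3% in DAXX-/- cells (22.1% to 22.6%) and 16.1% in ATRX-/- cells (15.9% to 16.4%). Without the MMETN, ERVB7 and ETNERV sequences these shares were 68.7%, 58.7% and 54.4%, in the same order.

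**Figure D5:**
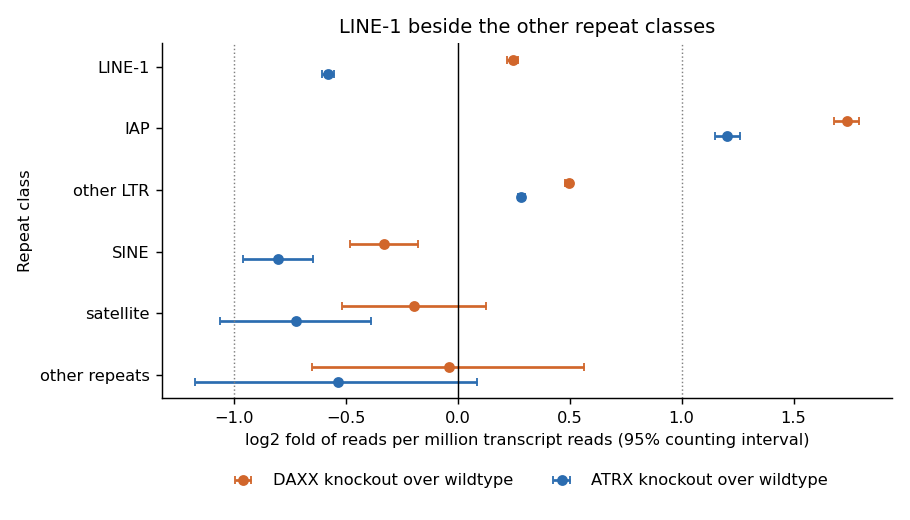
Log2 fold against wildtype (horizontal axis) of summed reads per repeat class in DAXX-/- cells (orange) and ATRX-/- cells (blue), with 95% counting intervals; dotted lines mark 2-fold. IAP lies beyond 2-fold in both, at 1.74 and 1.20, while LINE-1 stands at 0.25 and -0.58.

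Genes that act on LINE-1 were read from 6 lists with 67 symbols, of which 66 were counted and 64 reached 1 RPM in a library of each comparison. Of these 64, 0 rose and 4 fell in DAXX-/- cells, where 2.28% of all 13185 genes tested were called, 0.387% higher and 1.9% lower. In ATRX-/- cells 0 rose and 6 fell, Atrx itself included (5 with TMM, with size factors or with 1 leading transcript per gene, each time without Dnmt3b), beside 1.9% of 13290 genes, 0.609% higher and 1.29% lower. The median log2 fold over the 64 was -0.05 and -0.14, and over all genes tested -0.07 and -0.05. Atrx had 4582, 3576 and 1800 reads, a fall of 1.35 (-1.43 to -1.27) in its own knockout. Daxx had 1125, 623 and 972 reads, and its value of -0.54 (-0.68 to -0.39) in DAXX-/- cells lay inside the 2-fold limit. Where the edits lie in either gene is not given in the sources used here, so these counts do not by themselves check the labels.

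Among the genes of the HUSH pathway and of TRIM28 silencing, 0 of 7 tested were called in any comparison. Trim28, the corepressor that zinc finger proteins recruit, had 24359, 18986 and 18023 reads, with log2 folds of -0.04 (-0.07 to -0.02) and -0.44 (-0.46 to -0.41). Fam208a, which encodes the HUSH subunit TASOR, had 2612, 2205 and 2597 reads, and Mphosph8, the subunit that binds methylated lysine 9, had 2337, 2016 and 2689. Atf7ip, a partner that protects SETDB1, was singled out after its values were seen. It had 1207, 1825 and 2188 reads, with log2 folds of 0.91 (0.81 to 1.02) and 0.86 (0.76 to 0.96), the highest of these 7 in both knockouts and short of the rule. Of 13 genes of lysine 9 methylation, heterochromatin and H3.3, 1 was called, Atrx. The H3.3 genes H3f3a and H3f3b stood at 0.10 and -0.46 in DAXX-/- cells and at 0.13 and -0.44 in ATRX-/- cells, and Cbx5, heterochromatin protein HP1 alpha, at 0.05 and -0.16.

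Of 9 genes that act on DNA methylation, 1 fell in DAXX-/- cells and 2 in ATRX-/- cells. Dnmt3l, the cofactor of de novo methylation, had 905, 195 and 411 reads. It fell by 1.90 (-2.13 to -1.67) in DAXX-/- cells and stood at -1.14 (-1.31 to -0.97) in ATRX-/- cells. Dnmt3b, a de novo methyltransferase, had 1347, 922 and 606 reads and fell by 1.15 (-1.29 to -1.01) in ATRX-/- cells, with -0.23 (-0.35 to -0.11) in DAXX-/- cells. Its call was lost under TMM scaling, at -1.08 (-1.23 to -0.94), under size factors, at -1.09 (-1.23 to -0.95), and with its most abundant transcript alone, at -1.35 (-1.80 to -0.92). Dppa3, which restrains UHRF1, had 123, 60 and 10 reads and fell by 3.62 (-4.72 to -2.69) in ATRX-/- cells, with -0.72 (-1.19 to -0.26) in DAXX-/- cells. Dnmt1 and Uhrf1, which maintain methylation, stood at 0.21 and 0.23 in DAXX-/- cells and at 0.03 and 0.35 in ATRX-/- cells. Tet1, an enzyme that oxidises methylcytosine, stood at -0.12 and -0.78.

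The list of piRNA and other germline genes gave the other falls, with 3 of 7 tested in each knockout. Tex19.1, whose protein binds the LINE-1 RNA-binding protein in germ cells and stem cells, had 1036, 221 and 355 reads, and fell, with log2 folds of -1.91 (-2.13 to -1.70) and -1.55 (-1.72 to -1.37). Piwil2, a PIWI protein of the piRNA pathway, had 1112, 333 and 416 reads and fell, at -1.42 in both (-1.60 to -1.24 and -1.59 to -1.26). Dazl, a germ cell regulator of translation, had 104, 17 and 19 reads and fell, at -2.30 (-3.13 to -1.55) and -2.45 (-3.24 to -1.74). Mov10l1, the helicase of the same pathway, stood at -0.75 (-1.05 to -0.46) and -0.43 (-0.69 to -0.18). Between the knockouts 0 of these 7 were called.

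The 2 remaining lists had no member called. Of 16 tested factors that act on RNA or cDNA, such as the helicase MOV10 and the nucleotide hydrolase SAMHD1, values ran from -0.59 to 0.37 in DAXX-/- cells and from -0.55 to 0.28 in ATRX-/- cells. The members with the most reads were Ago2, Drosha and Safb, at -0.01, -0.12 and 0.17 and at -0.09, -0.05 and 0.17. Of 12 activators and proteins found in LINE-1 particles, Ncl, Pabpc1 and Hnrnpa2b1 had the most reads, with log2 folds of 0.05, 0.24 and 0.15 in DAXX-/- cells and -0.03, 0.41 and 0.18 in ATRX-/- cells. L1td1, named outside the rule, is a stem cell gene derived from a LINE-1 reading frame. It had 10722, 9231 and 9510 reads and stood at 0.10 (0.06 to 0.14) and -0.17 (-0.21 to -0.13). Between the knockouts, where 1.14% of 12940 genes were called (0.804% higher, 0.332% lower), 2 of the 64 genes were called, Atrx and Dppa3, both lower in ATRX-/- cells.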

How the data were processed

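PolyA RNA libraries of 3 mouse stem cell clones were used, 1 for each genotype. The authors deposited read counts, 1 table per library, in the layout of SAMtools idxstats. Bowtie 1.1.2, SAMtools and build GRCm38.p4 are named per the submitters' processing notes. Alignment settings, placement of reads with several positions and use of strand are not given in the sources used here. Reads from introns can reach a repeat consensus, and reads unlike any consensus are lost. The sequences of the repeats were not used here.

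Computed here were sums per gene and per LINE-1 subfamily (names matched with letter case, so that old mammalian families such as L1MDA are not taken for L1MdA; L1MdFanc counted with the others), scaled by transcript reads of 11224100 to 13988376 per library. Folds carry Clopper-Pearson 95% intervals of the 2 counts (Python 3.11.15, SciPy 1.17.1). Their computation was checked on gene counts simulated with counting error only, as the intervals assume. That check could not test PCR copies, differences between clones or exchange of reads. Called means an interval wholly beyond 2-fold, for sequences with 20 reads, or genes with 1 RPM, in 1 of the 2 libraries. Sequences named are each subfamily's 3 most abundant and up to 10 in each direction per comparison with the bound farthest from 0; genes named are those called, the 3 most abundant of each list, Atrx and Daxx. Outside that rule, and with values known, L1td1, Atf7ip, L1Lx_I, L1MdA_V, L1MdA_VI, L1MdF_V, L1Md_F_5end, Lx_3end and RLTR4I_MM are also named. Of the listed genes Gm6871 was not analysed here. Members and lists were chosen with earlier results of these data known. Alternatives were TMM (edgeR 4.0.16, R 4.3.3), DESeq2 1.42.0 size factors, all aligned reads, thinned counts, other filters and left-out sequences.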

Additional observations from a re-analysis of the deposited data

Results flagged for a closer look

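The 2 knockouts lay on opposite sides of wildtype, each with a counting interval clear of 0, for the LINE-1 total and 3 subfamily sums. The log2 folds in the DAXX and ATRX knockout libraries were 0.25 and -0.58 for the total, 0.36 and -0.65 for L1MdTf, 0.67 and -0.09 for L1MdGf and 0.15 and -0.55 for L1MdF. With 1 library each the differences were not tested over replicates. For L1MdGf the ATRX-/- value became -0.02 under TMM scaling and -0.57 without L1MdGf_I. For L1MdF the DAXX-/- value became 0.05 (-0.04 to 0.15) without L1MdF_I, an interval that includes 0.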

How the results depend on the processing

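No paired analysis was possible because each genotype has 1 library. The LINE-1 total kept its direction in all 3 comparisons under every alternative run. Against wildtype it moved from 0.25 to 0.34 (TMM) and 0.34 (size factors) in DAXX-/- cells, and from -0.58 to -0.51 (TMM), -0.52 (size factors) and -0.55 (without L1MdTf_I) in ATRX-/- cells. Between the knockouts it moved from -0.82 to -0.86 (size factors) and -0.79 (without the sequence with the most reads). The count of LINE-1 sequences lower in ATRX-/- than in DAXX-/- cells went from 0 to 2 with TMM, 2 with size factors and 1 with thinned counts. With a limit of 1.5-fold, 1 sequence was higher in DAXX-/- cells (L1MdGf_I), 9 were lower in ATRX-/- cells and 11 were lower between the knockouts. The shares over all repeat sequences were not computed at that limit or under these scalings, so these counts have no background. With no fold limit, which is not the same measure, 54.9% of all repeat sequences tested lay wholly below 0 in ATRX-/- cells and 74.7% between the knockouts. LINE-1 is included in these shares, and over the other repeat sequences they were 37.5% and 64.2%. Without the MMETN, ERVB7 and ETNERV sequences, an alternative chosen after seeing the data, LINE-1 made up 68.7%, 58.7% and 54.4% of repeat reads, and the other long terminal repeat elements turned from 0.29 to -0.30 in ATRX-/- cells. Without the leading sequence of each subfamily, also chosen after seeing the data, 15 of 18 subfamily shares left their counting interval. TMM turned the sign of 7 of 35 single sequences in DAXX-/- cells, all with intervals that include 0. The median log2 fold of all genes in DAXX-/- cells was -0.07, and 0.03 under TMM.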
